A study of Mus musculus with 24 samples.

Results

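Endothelial cells that had lost both BRG1 and CHD4 were compared with control endothelial cells of the same embryonic stage. The comparison used 6 of the 24 libraries of the series, namely the 3 LSEC libraries labelled DKO and the 3 LSEC libraries labelled Ctrl, and it covered the 13444 of 25361 genes that reached 1 TPM or more in 3 or more LSEC libraries of 12. LSECs, liver sinusoidal endothelial cells, are here the CD146+ cells of E12.5 mouse livers, and the cells left after CD146 selection form the non-EC fraction. The DKO embryos (genotype Chd4/Brg1-ECDKO, homozygous for floxed alleles of both genes) carried the VE-cadherin-Cre transgene, which is active in endothelial cells and also in some blood cells. The Ctrl embryos (Cre-) were littermates without the transgene that carried floxed alleles of both genes. The single mutants were Chd4-ECKO, which also carry 1 floxed *Brg1* allele with Cre, and Brg1-ECKO, which also carry 1 floxed *Chd4* allele with Cre. All embryos were of a mixed background and of both sexes, replicates were separate embryos, every group had 3 replicates, and all libraries share the batch label 1.

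BRG1, encoded by *Smarca4*, is the ATPase of the BAF (SWI/SNF) complexes, which slide or evict nucleosomes and often open regulatory DNA. CHD4 is the ATPase of the NuRD complex, which joins nucleosome remodeling to histone deacetylation and is known for keeping genes of other lineages silent. Sinusoidal endothelial cells line the wide, leaky capillaries of the liver, take up waste by scavenger receptors, and in the fetus sit beside hepatoblasts and the blood cells that mature there.

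The values are TPM, reads per gene length scaled to the same total in every library, so that they hold no library size and the depth behind a value is unknown. Between 12746 and 13219 genes reached 1 TPM in the 6 libraries. Correlations between replicates were 0.984 to 0.990 in Ctrl and 0.982 to 0.987 in DKO. The endothelial label was borne out by defining markers in all 6 libraries. *Cdh5* had 274 to 368 TPM, *Kdr* 216 to 279 TPM, *Stab2* 82.5 to 146 TPM and *Lyve1* 349 to 630 TPM there, while the 12 non-EC libraries did not exceed 13.4 TPM for *Cdh5* and 5.89 TPM for *Lyve1*. RNA of other cells was also present. Mesenchymal RNA was far higher in the LSEC fraction than in non-EC cells. *Col1a1* had 227 to 389 TPM in Ctrl and 270 to 344 TPM in DKO, against at most 24.7 TPM in non-EC libraries. *Pdgfra* had 47.4 to 69.0 TPM in Ctrl and 69.2 to 88.1 TPM in DKO, against at most 2.42 TPM there. *Afp*, the main hepatoblast transcript, had 1267 to 2756 TPM in Ctrl and 2147 to 3513 TPM in DKO, and the macrophage gene *Adgre1* had 16.1 to 25.1 TPM in Ctrl and 18.1 to 44.1 TPM in DKO.

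The groups also differed in Y-linked RNA, and the labels give no sex. The Y-linked gene *Eif2s3y* had 33.1, 64.2 and 23.8 TPM in the Ctrl libraries and 31.3, 0.874 and 0.683 TPM in DKO libraries 1, 2 and 3. All 3 Ctrl libraries and 1 of 3 DKO libraries therefore held Y-linked RNA. With log2 of *Eif2s3y* as a covariate 6 genes were called higher and 0 lower (*Hbb-bh1*, *Trap1a*, *Tcfl5*, *Susd3*, *Nefh* and *Il10ra*), while all 76 genes called below without it kept their direction. The median log2 fold change was 3.22 with the covariate and 3.11 without it for embryonic globin genes, 0.74 and 0.75 for pan-leukocyte genes, and 0.51 and 0.54 for interferon response genes. It moved more in other lists, to 0.25 from 0.57 for blood stem cell genes, to -0.24 from 0.12 for other erythroid genes, to -0.14 from 0.12 for megakaryocyte genes and to 0.18 from 0.28 for inhibitors of the cell cycle and p53 targets. For immediate-early genes it moved to 0.171 from 0.268. Among others, the medians of striated muscle (-0.052 from 0.185), cell cycle (-0.028 from 0.143) and mesenchymal genes (-0.07 from 0.086) also turned sign. Over the libraries with *Eif2s3y* above 10 TPM, which leave 1 DKO library, 0 were called, a design too small to weigh the lost calls, and the log2 fold change there was 5.14 for *Hbb-bh1*, 2.35 for *Tcfl5*, 1.97 for *Nefh* and 1.71 for *Susd3*. The share of TPM from mitochondrial genes was 20.6% to 24.6% in Ctrl, 27.4% in DKO library 1, and 14.7% and 13.9% in the other DKO libraries.

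Whole-gene TPM, which do not separate the floxed exons from the rest of a transcript, did not show the deletions. *Chd4* had 285, 255 and 246 TPM in Ctrl and 242, 249.8 and 256 TPM in DKO (log2 fold change -0.07, SE 0.17, limma adjusted p = 0.869). *Smarca4* had 161, 144 and 134 TPM in Ctrl and 131, 117 and 151 TPM in DKO (log2 fold change -0.14, SE 0.17, adjusted p = 0.704). The groups overlapped for both genes.

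The question of the comparison is which transcripts differ when endothelial cells lack both remodelers. Differentially expressed genes (DEGs) were taken as those whose log2 fold change exceeded 1 in either direction with a limma adjusted p under 0.05, on the scale of log2(TPM + 1), which understates the change of genes with low values. By these thresholds 66 genes (0.491%) were higher and 10 (0.0744%) lower in DKO than in Ctrl LSECs, so that 86.8% of 76 DEGs were higher. The median log2 fold change of all tested genes was 0.155, and quantile normalization, which brings that median to -0.004, gave 30 higher and 16 lower DEGs (65.2% higher). Groups of DEGs are therefore read below beside the median of 0.155, and counts of DEGs in lists beside 0.491% higher and 0.0744% lower. With 1 library left out the number of higher DEGs moved, to 19 without DKO library 3, 32 without Ctrl library 2, 39 without Ctrl library 1, 41 without DKO library 2 and 106 without Brg1-ECKO library 1, and 5 or 6 genes were lower without Ctrl library 1 or 2 or any DKO library. *Hbb-bh1*, *Trap1a*, *Tcfl5*, *Susd3*, *Nefh* and *Il10ra* passed in all of these. Of the 66 higher DEGs, 41 had a Ctrl mean under 5 TPM and 13 one under 1 TPM, so that many were scarce in control LSECs. In control livers 45 of these 66 (68.2%) were more abundant in non-EC cells than in LSECs, against 53.1% of all tested genes, and 0 of the 10 lower DEGs did. The same Ctrl LSEC libraries enter both sides of that count.

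**Figure D1:**
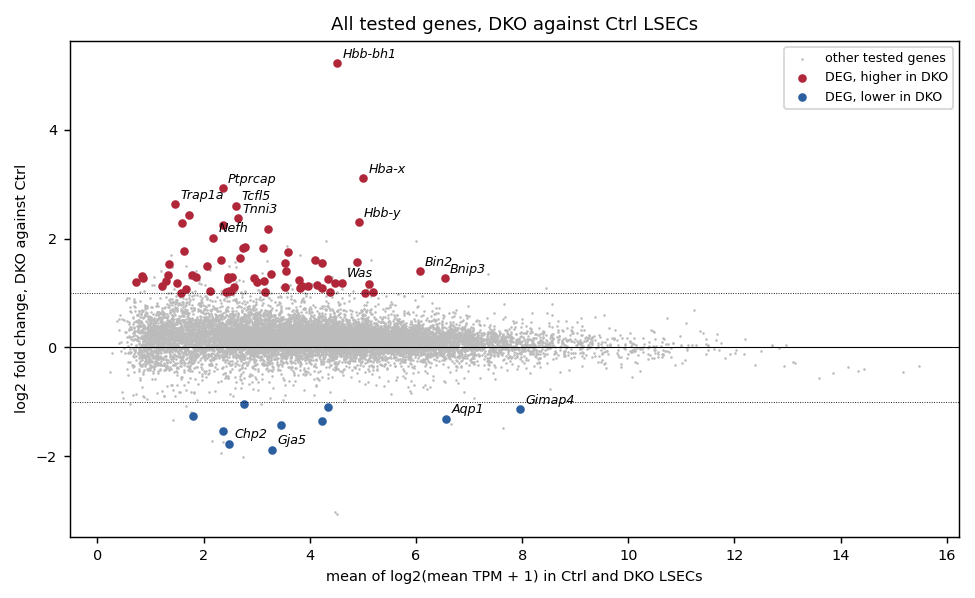
Log2 fold change of DKO against Ctrl LSECs (vertical) against the mean log2(TPM + 1) of the 2 groups (horizontal) for 13444 genes, each point a gene. Red points are the 66 higher and blue points the 10 lower DEGs, dotted lines mark a log2 fold change of 1 in size, *Hbb-bh1* stands highest at 5.22, and the 2 grey points lowest on the plot are the Y-linked *Eif2s3y* and *Ddx3y*.

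All 3 embryonic globin genes were DEGs, and the 2 largest rises of all tested genes were among them. *Hbb-bh1*, *Hbb-y* and *Hba-x* encode the globin chains of primitive red cells, which circulate before the liver makes adult-type red cells. *Hbb-bh1* (ENSMUSG00000052217, GRCm39 chr7:103490844-103492371, minus strand) had 2.67, 3.84 and 1.85 TPM in Ctrl and 129.6, 135 and 146 TPM in DKO. No other gene rose as far, and its DKO libraries lay close together (log2 fold change 5.22, SE 0.52, adjusted p = 0.000451). *Hba-x* (chr11:32226400-32228116, plus strand) had 11.9, 6.14 and 11.8 TPM in Ctrl and 113, 63.1 and 101 TPM in DKO (3.11, SE 0.42, adjusted p = 0.0041). *Hbb-y* (chr7:103500956-103502423, minus strand) had 14.99, 7.65 and 15.9 TPM in Ctrl and 54.3, 63.4 and 78.0 TPM in DKO (2.31, SE 0.44, adjusted p = 0.0281). The groups were apart for each of them, but *Hbb-y* lost its call in 10 of 17 alternatives, among them each that left out 1 Ctrl or DKO library, quantile normalization and the *Eif2s3y* covariate.

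Of 23 tested erythroid genes other than the embryonic globins, 0 were DEGs, 4 were higher in every DKO library than in every Ctrl library (20.8% of all tested genes were so), and their median log2 fold change was 0.12. *Car1*, a carbonic anhydrase of red cells and the member with the largest value, had 1.18, 1.15 and 0.34 TPM in Ctrl and 4.33, 5.57 and 3.01 TPM in DKO (1.49, SE 0.44, adjusted p = 0.162). *Tmod1*, a cap of actin filaments in the red cell skeleton that was not in the list and is named after its values were seen, had 2.38, 3.60 and 1.66 TPM in Ctrl and 7, 6.999 and 8.66 TPM in DKO (1.30, SE 0.28, adjusted p = 0.047). The adult globin gene *Hba-a1* had 188, 391 and 160 TPM in Ctrl and 189, 233 and 157 TPM in DKO (-0.26, SE 0.52, adjusted p = 0.837). The summed TPM of these 23 erythroid genes, globins of the adult type included, ranged from 726 to 2367 in Ctrl and from 833 to 1431 in DKO. Adult alpha and beta globin genes have near-identical copies (*Hba-a1* and *Hba-a2*, *Hbb-bs* and *Hbb-bt*), among which reads may be split arbitrarily, and values of single adult copies are uncertain.

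The promoters of both embryonic beta-like genes are shown because they hold the classical globin boxes. The 250 bases before each transcription start were read from GRCm39 at the start of the canonical transcript of the annotation, chr7:103492372-103492621, minus strand, for *Hbb-bh1* and chr7:103502424-103502673, minus strand, for *Hbb-y*. Capitals mark CCACCC, the CACCC box bound by KLF factors, and CCAAT, searched on both strands.
Hbb-bh1: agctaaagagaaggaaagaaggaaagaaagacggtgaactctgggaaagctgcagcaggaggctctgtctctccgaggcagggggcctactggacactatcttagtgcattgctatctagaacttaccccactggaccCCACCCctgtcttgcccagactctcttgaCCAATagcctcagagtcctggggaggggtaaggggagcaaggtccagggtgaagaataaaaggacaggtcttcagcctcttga
Hbb-y: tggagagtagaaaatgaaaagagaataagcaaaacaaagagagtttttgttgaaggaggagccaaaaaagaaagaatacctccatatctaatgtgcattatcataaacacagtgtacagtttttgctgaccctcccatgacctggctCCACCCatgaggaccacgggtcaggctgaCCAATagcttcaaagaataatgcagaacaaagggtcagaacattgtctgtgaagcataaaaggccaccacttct
CCACCC begins 112 bases before the start in *Hbb-bh1* and 103 in *Hbb-y*, and CCAAT 83 and 74 bases before it. Of the same window in 13442 tested genes, 32.1% held CCACCC and 36.0% held CCAAT, so that either box alone is common. The window of *Hba-x* held neither. Among the 66 higher DEGs 36.4% held CCACCC, 24.2% held CCAAT and 12.1% held AGATAA, the letters of a GATA site, which 7.42% of all windows held.

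**Figure D2:**
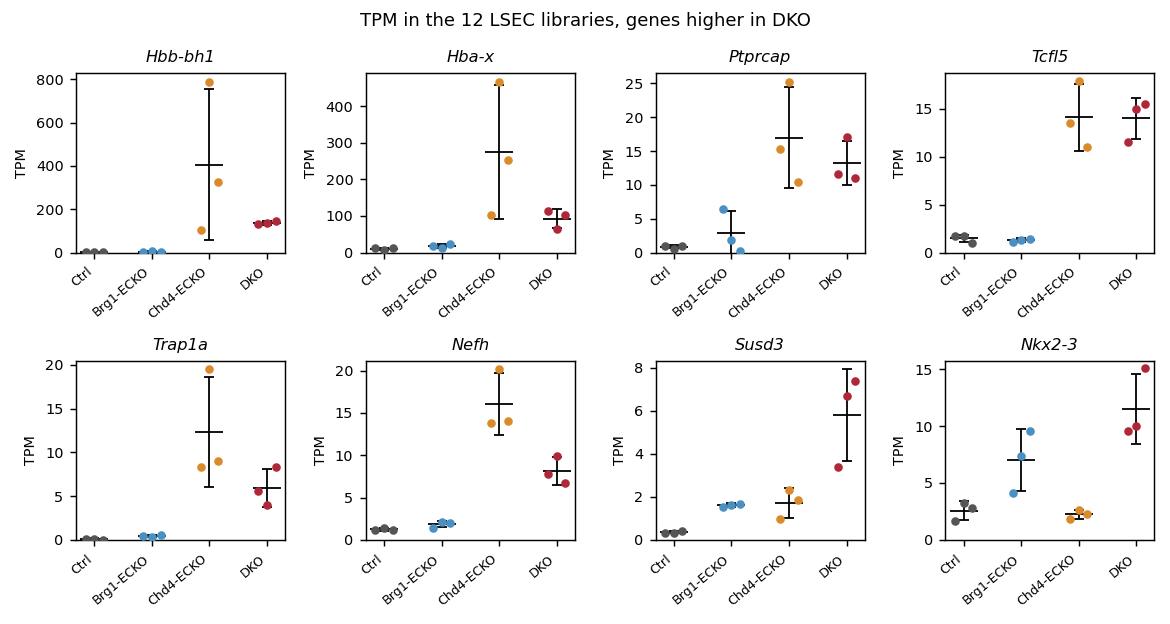
TPM (vertical) of 8 genes in the 12 LSEC libraries by genotype, each point a library, with the mean and SD of 3 libraries (SD bars stop at 0). The 3 DKO libraries of *Hbb-bh1* sit between 129.6 and 146 TPM and the Ctrl libraries under 4 TPM, and *Susd3* and *Nkx2-3* are highest in DKO.

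Of the 37 listed germline genes 14 were tested and 3 were DEGs, all higher (0.491% of all tested genes were higher DEGs). In 5 of the 14 (35.7%) every DKO library stood above every Ctrl library, against 20.8% of all tested genes. *Trap1a* and *Tex19.1* stayed under 1 TPM in every Ctrl and Brg1-ECKO library. They passed the filter only through DKO and Chd4-ECKO libraries, where they are high, so these shares are a description only. The median log2 fold change of the 14 was 0.32 beside 0.155 for all tested genes, and ranged from -0.02 to 0.57 over the alternatives. *Tcfl5* (ENSMUSG00000038932, chr2:180263529-180284556, minus strand), a helix-loop-helix transcription factor of spermatocytes, had 1.69, 1.71 and 1.02 TPM in Ctrl and 11.5, 14.98 and 15.4 TPM in DKO. Its adjusted p of 5.82e-05 was the smallest of all tested genes (log2 fold change 2.60, SE 0.20). *Trap1a*, an X-linked tumor rejection antigen gene, had 0.139, 0.111 and 0 TPM in Ctrl and 5.56, 3.93 and 8.30 TPM in DKO (2.63, SE 0.29, adjusted p = 0.000893). *Tex19.1*, which restrains retrotransposons in germ cells, had 0.262, 0 and 0 TPM in Ctrl and 1.23, 1.33 and 2.01 TPM in DKO (1.21, SE 0.21, adjusted p = 0.0166), and it lost its call in 6 of 16 alternatives, among them without Ctrl library 2 or 3 or DKO library 2 or 3. Other germline genes did not pass the test. *Stag3*, a meiotic cohesin subunit, had 2.49 to 3.41 TPM in Ctrl and 3.39 to 6.36 TPM in DKO, and *Rhox5* had 42.2 to 69.9 TPM in Ctrl and 32.8 to 52.9 TPM in DKO. *Xlr4a*, an X-linked gene of a multicopy family whose reads may be shared among copies, had 0.845, 0.563 and 0.609 TPM in Ctrl and 3.38, 5.06 and 5.83 TPM in DKO (1.76, SE 0.30, adjusted p = 0.0114), and it lost its call in 7 of 16 alternatives, among them without Ctrl library 2 or DKO library 2 or 3.

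The neuronal and striated muscle lists each held 1 DEG, both higher (0.491% of all tested genes were higher DEGs). Every DKO library was above every Ctrl library in 14.3% and 5.26% of their tested members, against 20.8% of all tested genes. Every DKO library was below every Ctrl library in 9.52% and 5.26% of them, against 2.29%. *Nefh* (ENSMUSG00000020396, chr11:4888740-4898130, minus strand), the heavy neurofilament of axons, had 1.15, 1.41 and 1.13 TPM in Ctrl and 7.75, 9.95 and 6.66 TPM in DKO (2.02, SE 0.20, adjusted p = 0.000451). *Nts*, the neuropeptide neurotensin and second in the list, had 1.44, 1.99 and 1.02 TPM in Ctrl and 3.15, 5.71 and 5.22 TPM in DKO, without overlap (1.19, SE 0.26, adjusted p = 0.0525). For the light and medium neurofilament genes the groups overlapped. *Nefl* had 2.55 to 7.37 TPM in Ctrl and 4.11 to 4.75 TPM in DKO, and *Nefm* had 2.26 to 8.49 TPM in Ctrl and 5.42 to 12.5 TPM in DKO. *Nefh* was the 1 DEG among 21 tested neuronal genes, whose median was 0.21. *Tnni3*, cardiac troponin I, had 1.72, 1.76 and 1.70 TPM in Ctrl and 11.04, 12.8 and 15.8 TPM in DKO (2.37, SE 0.36, adjusted p = 0.00726), a call lost without DKO library 3. It was the 1 DEG among 19 tested muscle genes (median 0.18). *Actc1*, cardiac actin, had 2.26 to 22.8 TPM in Ctrl and 7.29 to 54.2 TPM in DKO, so that its groups overlapped.

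*Susd3* (ENSMUSG00000021384, chr13:49378985-49402182, minus strand), which encodes a sushi domain membrane protein, had 0.326, 0.313 and 0.395 TPM in Ctrl and 3.40, 6.68 and 7.40 TPM in DKO (2.29, SE 0.25, adjusted p = 0.000893). *Snhg11*, a long noncoding RNA that hosts a small nucleolar RNA, had 0.642, 0.156 and 0.435 TPM in Ctrl and 4.69, 6.17 and 9.58 TPM in DKO (2.44, SE 0.28, adjusted p = 0.00134). *Fgf23*, a hormone of phosphate balance that bone normally makes, had 0.39 to 0.721 TPM in Ctrl and 2.26 to 3.73 TPM in DKO (1.33, SE 0.26, adjusted p = 0.0276). In each of these the lowest DKO library stood above the highest Ctrl library.

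The promoters of *Tcfl5*, *Nefh* and *Tex19.1* are shown as examples of genes that were scarce in Ctrl (at most 1.71 TPM) and rose in DKO. Capitals mark each CG dinucleotide, the site of DNA methylation, in the 250 bases before the start (chr2:180284557-180284806, minus strand, for *Tcfl5*, chr11:4898131-4898380, minus strand, for *Nefh*, and chr11:121036719-121036968, plus strand, for *Tex19.1*).
Tcfl5: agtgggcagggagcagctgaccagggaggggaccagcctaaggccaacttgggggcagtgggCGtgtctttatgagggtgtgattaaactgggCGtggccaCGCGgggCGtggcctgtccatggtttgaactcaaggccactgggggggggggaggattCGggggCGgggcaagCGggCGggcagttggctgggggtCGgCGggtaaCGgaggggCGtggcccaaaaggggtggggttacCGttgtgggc
Nefh: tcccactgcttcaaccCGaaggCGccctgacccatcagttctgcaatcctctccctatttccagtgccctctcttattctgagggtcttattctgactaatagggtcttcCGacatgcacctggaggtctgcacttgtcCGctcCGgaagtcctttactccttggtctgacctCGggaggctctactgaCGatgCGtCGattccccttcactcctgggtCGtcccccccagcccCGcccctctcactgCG
Tex19.1: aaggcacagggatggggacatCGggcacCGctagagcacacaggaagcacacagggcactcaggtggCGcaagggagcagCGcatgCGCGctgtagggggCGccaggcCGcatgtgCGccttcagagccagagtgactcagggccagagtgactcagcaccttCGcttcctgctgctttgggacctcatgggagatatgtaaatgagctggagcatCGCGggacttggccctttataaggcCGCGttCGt
They hold 14, 12 and 15 CG dinucleotides, near the median of 12 over the windows of all tested genes. The windows of the 66 higher DEGs had a median of 7 CG and those of the 10 lower DEGs a median of 6. The embryonic globin windows had a median of 1. Methylation was not measured in these libraries.

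Of 20 tested pan-leukocyte genes 5 were DEGs, all higher (0.491% of all tested genes were higher DEGs). All 20 had a positive log2 fold change, as did 10315 of the 13444 tested genes, 17 were higher in every DKO library than in every Ctrl library (20.8% of all tested genes were so), and their median of 0.75 stood above the 0.155 of all tested genes. *Ptprcap*, which encodes a partner of the phosphatase CD45, had 1.02, 0.568 and 0.966 TPM in Ctrl and 11.6, 17.0 and 11.1 TPM in DKO (2.93, SE 0.48, adjusted p = 0.0105). The other 4 rose less. *Was*, the actin regulator that is mutated in Wiskott-Aldrich syndrome, had 14.7, 14.4 and 16 TPM in Ctrl and 33.8, 37.1 and 35.7 TPM in DKO (1.19, SE 0.17, adjusted p = 0.00426). *Rac2*, a blood cell GTPase, had a log2 fold change of 1.13, *Vav1*, its exchange factor, one of 1.01, and *Laptm5*, a lysosomal protein of leukocytes, one of 1.01. Without DKO library 3, or without Ctrl library 2, *Was* alone of the 5 was still called. *Ptprc* itself, which encodes CD45, had 5.26 to 8.38 TPM in Ctrl and 10.9 to 15.8 TPM in DKO. *Arhgdib* had 96.0 to 110.3 TPM in Ctrl and 109 to 127 TPM in DKO (0.25, SE 0.21, adjusted p = 0.587) and was the leukocyte gene that differed least. The summed TPM of the list was 400 to 521 in Ctrl and 696 to 768 in DKO. Against the same Ctrl libraries the list median was 1.06 in Chd4-ECKO and 0.54 in Brg1-ECKO, so a rise of this list was not particular to DKO.

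Other DEGs of large change were in none of the lists. *Alox5*, the 5-lipoxygenase that starts leukotriene synthesis, had 1.51, 0.974 and 1.56 TPM in Ctrl and 7.49, 12.1 and 11.4 TPM in DKO (2.25, SE 0.34, adjusted p = 0.00724), and its call was lost without DKO library 3. *Il10ra*, the ligand-binding chain of the interleukin 10 receptor, had 3.98, 3.03 and 3.84 TPM in Ctrl and 13.3, 17.3 and 15.5 TPM in DKO (1.83, SE 0.22, adjusted p = 0.0018). *Mmp9*, a gelatinase that cleaves matrix, had 2.43, 1.32 and 4.46 TPM in Ctrl and 11.1, 11.6 and 12.2 TPM in DKO (1.84, SE 0.34, adjusted p = 0.0234), and it lost its call in 9 of 17 alternatives, among them each without 1 DKO library. *Slc35d3*, a transporter gene needed for platelet dense granules, had 3.36, 3.83 and 2.69 TPM in Ctrl and 11.3, 20.2 and 26.0 TPM in DKO (2.17, SE 0.35, adjusted p = 0.00917), a call also lost without DKO library 3. *Bin2*, *Itgal*, *Csf2rb* and *Msr1*, named here after their values were seen, had log2 fold changes of 1.40, 1.25, 1.24 and 1.56.

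Macrophage genes gave 0 DEGs of 20 tested, though all 20 had a positive log2 fold change, 19 above the median of all genes, with a median of 0.63. The 5 that were higher in every DKO library are a share of 25%, near the 20.8% of all tested genes. *Cx3cr1* had 15.5, 11.9 and 17.4 TPM in Ctrl and 40.8, 23.7 and 31.1 TPM in DKO (1.02, SE 0.24, adjusted p = 0.0717), and *Lyz2* had 211 to 269 TPM in Ctrl and 229 to 315 TPM in DKO. The summed TPM of the macrophage list was 1064 to 1604 in Ctrl and 2204, 1363 and 2144 in DKO libraries 1, 2 and 3, so that DKO library 2 lay among the controls. Granulocyte and mast cell genes (0 DEGs of 9 tested, median 0.06), megakaryocyte genes (0 of 15, median 0.12) and lymphoid genes (0 of 5, median -0.06) lay near or below the median of all genes, and *Mcpt8*, *Rag1* and other lymphoid or granulocyte genes did not pass the filter on low values. In these bulk samples more blood cells in the fraction and more RNA per cell cannot be told apart, and the part that either takes in the leukocyte genes was not tested.

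Genes of blood stem cells and of their emergence from endothelium gave no DEG among 17 tested, yet 11 were higher in every DKO library than in every Ctrl library (20.8% of all tested genes) and 2 lower (2.29%), with a median of 0.57. That median was 0.25 with the *Eif2s3y* covariate and 0.36 after quantile normalization. *Gata2*, a factor of stem cells and endothelium, passed the adjusted p alone, as did 0.751% of tested genes in that direction, with 10.5, 8.49 and 7.49 TPM in Ctrl and 14.1, 17.5 and 19.0 TPM in DKO (0.86, SE 0.18, adjusted p = 0.0409). *Mecom* (also EVI1), another stem cell factor, passed it in the other direction, as did 0.119%, with 14.4, 17.4 and 12.5 TPM in Ctrl and 7.42, 7.11 and 8.22 TPM in DKO (-0.87, SE 0.18, adjusted p = 0.0409). *Myb* had 6.33, 4.79 and 4.17 TPM in Ctrl and 13.1, 27.7 and 25.5 TPM in DKO (1.87, SE 0.52, adjusted p = 0.14). *Adgrg1* had 4.15 to 4.27 TPM in Ctrl and 10.3 to 18.7 TPM in DKO (1.59, SE 0.35, adjusted p = 0.0524), and *Kit* 5.96 to 8.01 and 10.9 to 16.1 TPM (0.95, SE 0.24, adjusted p = 0.106).

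**Figure D3:**
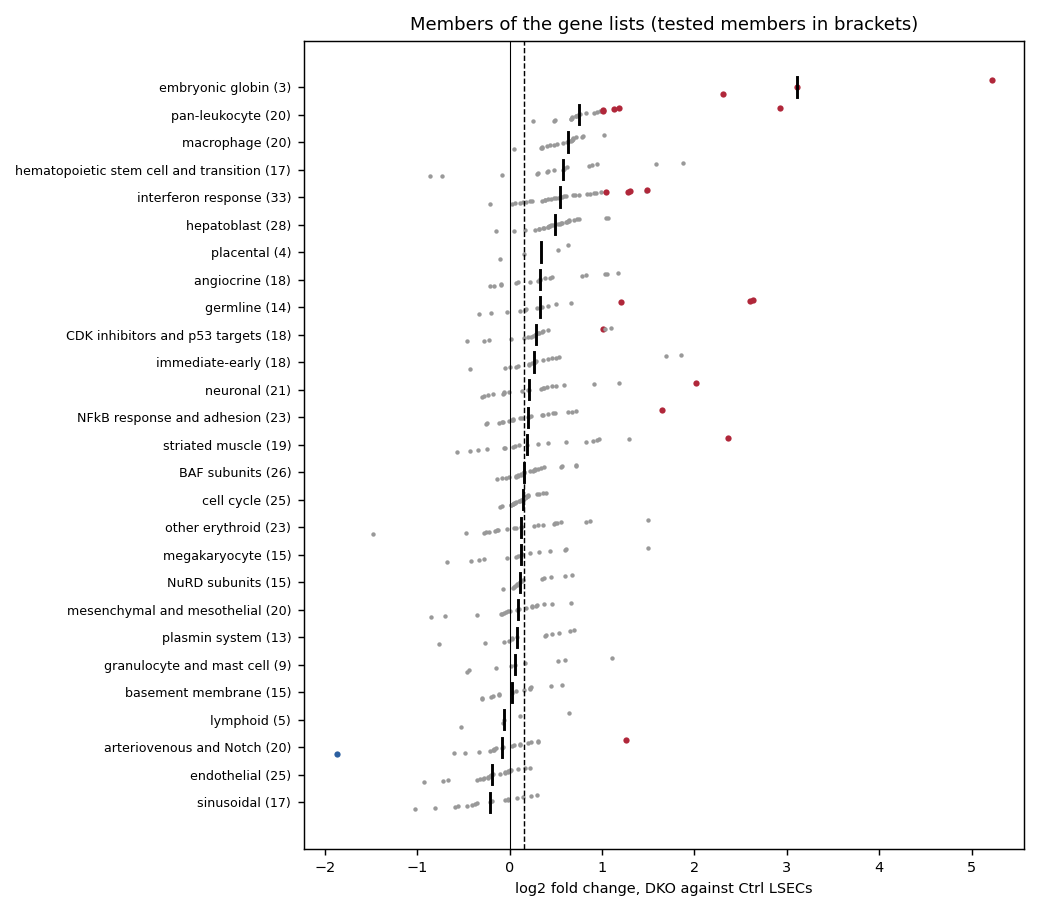
Log2 fold change of DKO against Ctrl LSECs (horizontal) for the tested members of 27 gene lists (vertical), each point a gene, where red and blue points are higher and lower DEGs, black bars are the list medians, and the dashed line is the median of 0.155 over all tested genes. The embryonic globin median of 3.11 stands apart, and the endothelial and sinusoidal medians of -0.19 and -0.21 are the lowest.

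The interferon response list held 4 DEGs of 33 tested, all higher (0.491% of all tested genes were higher DEGs). It had 21 members higher in every DKO library (20.8% of all tested genes were so) and a median of 0.54. Against the same Ctrl libraries the list median was 0.39 in Chd4-ECKO and 0.43 in Brg1-ECKO, beside 0.007 and 0.081 for all tested genes. All 4 calls were lost without DKO library 3 and without Ctrl library 2. *Rtp4* had 3.30, 2.39 and 2.26 TPM in Ctrl and 5.84, 7.53 and 11.2 TPM in DKO (1.30, SE 0.22, adjusted p = 0.0111). *Irf7*, the factor that amplifies the type I interferon response, had 4.26, 3.25 and 4.22 TPM in Ctrl and 10.6, 8.48 and 14.1 TPM in DKO (1.28, SE 0.22, adjusted p = 0.0144). *Oas1a*, a sensor of double-stranded RNA with close paralogs, rose by 1.49 (SE 0.32, adjusted p = 0.047) and *Xaf1* by 1.05 (SE 0.22, adjusted p = 0.0391). *Isg15* had 2.56, 1.49 and 3.62 TPM in Ctrl and 4.43, 9.13 and 14.98 TPM in DKO (1.47, SE 0.35, adjusted p = 0.0712). DKO library 3 was the highest for all 5 of these. *Ifit1*, another classical target, had 0.554 to 2.22 TPM in Ctrl and 1.21 to 1.42 TPM in DKO, and *Gbp2* had 25.2 to 34.0 and 20.4 to 31.2 TPM.

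The promoters of *Rtp4* and *Isg15*, described above, are shown because each holds several copies of the core of the interferon-stimulated response element, which is TTTC, any 2 bases and TTTC again, searched on both strands and shown in capitals (chr16:23428396-23428645, plus strand, for *Rtp4* and chr4:156285304-156285553, minus strand, for *Isg15*).
Rtp4: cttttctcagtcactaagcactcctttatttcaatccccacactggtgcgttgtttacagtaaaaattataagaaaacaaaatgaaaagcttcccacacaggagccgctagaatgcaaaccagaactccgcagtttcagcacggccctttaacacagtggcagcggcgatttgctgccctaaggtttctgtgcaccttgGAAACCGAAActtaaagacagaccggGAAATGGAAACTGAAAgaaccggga
Isg15: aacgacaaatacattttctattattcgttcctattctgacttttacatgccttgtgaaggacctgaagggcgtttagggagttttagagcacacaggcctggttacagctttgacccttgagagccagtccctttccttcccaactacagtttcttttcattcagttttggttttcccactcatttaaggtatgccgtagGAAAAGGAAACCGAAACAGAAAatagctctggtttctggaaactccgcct
Each holds 3 overlapping or neighboring copies within 51 bases of the start. Of the 33 interferon response genes 39.4% held at least 1 copy, against 3.07% of all tested genes and 4.55% of the higher DEGs. Of the 4 interferon DEGs only *Rtp4* held it in this window.

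Endothelial identity genes gave no DEG. Among 25 tested pan-endothelial genes 4 were lower in every DKO library than in every Ctrl library, as were 2.29% of tested genes, 0 were higher, and the median was -0.19. *Pecam1* had 96.6 to 129 TPM in Ctrl and 116 to 135 TPM in DKO. *Mmrn2* had 86.8, 106 and 76.7 TPM in Ctrl and 48.1, 55.8 and 57.5 TPM in DKO (-0.72, SE 0.16, adjusted p = 0.0518), and *Vwf* 12.5, 14.5 and 9.71 TPM in Ctrl and 5.83, 6.80 and 5.08 TPM in DKO (-0.93, SE 0.33, adjusted p = 0.27). Sinusoidal genes were similar, with 0 DEGs of 17 tested, 4 lower without overlap and a median of -0.21. The scavenger receptor gene *Stab2* had 135, 146 and 114 TPM in Ctrl and 82.5, 85.8 and 90.4 TPM in DKO (-0.60, SE 0.16, adjusted p = 0.131), while its relative *Stab1* had 55.0 to 69.9 and 67.8 to 84.2 TPM (0.23, SE 0.16, adjusted p = 0.539). The summed TPM of the endothelial list was 2091 to 2743 in Ctrl and 1952 to 2415 in DKO.

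None of the 10 lower DEGs was in the pan-endothelial or sinusoidal list, and 1 was in the arteriovenous list. *Gja5* (ENSMUSG00000057123), connexin 40 of arterial gap junctions, had 11.1, 25.9 and 17.4 TPM in Ctrl and 3.65, 3.29 and 5.06 TPM in DKO (-1.87, SE 0.30, adjusted p = 0.00917). *Aqp1*, the water channel of endothelium and red cells, had 120.3, 193 and 133 TPM in Ctrl and 52.2, 57.1 and 66.4 TPM in DKO (-1.31, SE 0.19, adjusted p = 0.00631). *Gimap4*, a GTPase gene of lymphocytes and endothelium, had 329.5, 473 and 306 TPM in Ctrl and 143, 185 and 168 TPM in DKO (-1.14, SE 0.22, adjusted p = 0.0261) and was the most abundant DEG. *Ly6a*, which encodes the stem cell antigen SCA-1, had 6.38, 7.92 and 8.46 TPM in Ctrl and 1.90, 1.04 and 3.33 TPM in DKO (-1.54, SE 0.28, adjusted p = 0.0186). *Tm4sf1*, a tetraspanin-like protein of endothelial projections, had 24.9, 36.9 and 26.4 TPM in Ctrl and 11.1, 10.6 and 10.4 TPM in DKO (-1.36, SE 0.28, adjusted p = 0.0382). *Ntn4*, a netrin of basement membranes, had 3.32, 5.63 and 4.28 TPM in Ctrl and 1.18, 1.10 and 1.41 TPM in DKO (-1.26, SE 0.20, adjusted p = 0.00741). *Chp2* (-1.77), *Slc26a10* (-1.42), *Fam124a* (-1.09) and *Chst7* (-1.04) were the other lower DEGs. Ctrl library 2 was the highest Ctrl library for *Gja5*, *Aqp1*, *Gimap4*, *Tm4sf1*, *Ntn4*, *Chp2*, *Chst7* and *Fam124a*, and without it 5 genes were called lower. *Chp2* lost its call in 3 of 17 alternatives, among them without DKO library 3. Of 17 alternatives *Slc26a10* lost its call in 12, *Tm4sf1* and *Chst7* in 10 and *Gimap4* in 8, and *Ly6a* lost it in 7 of 16, each among them in most of those that left out 1 Ctrl or DKO library.

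**Figure D4:**
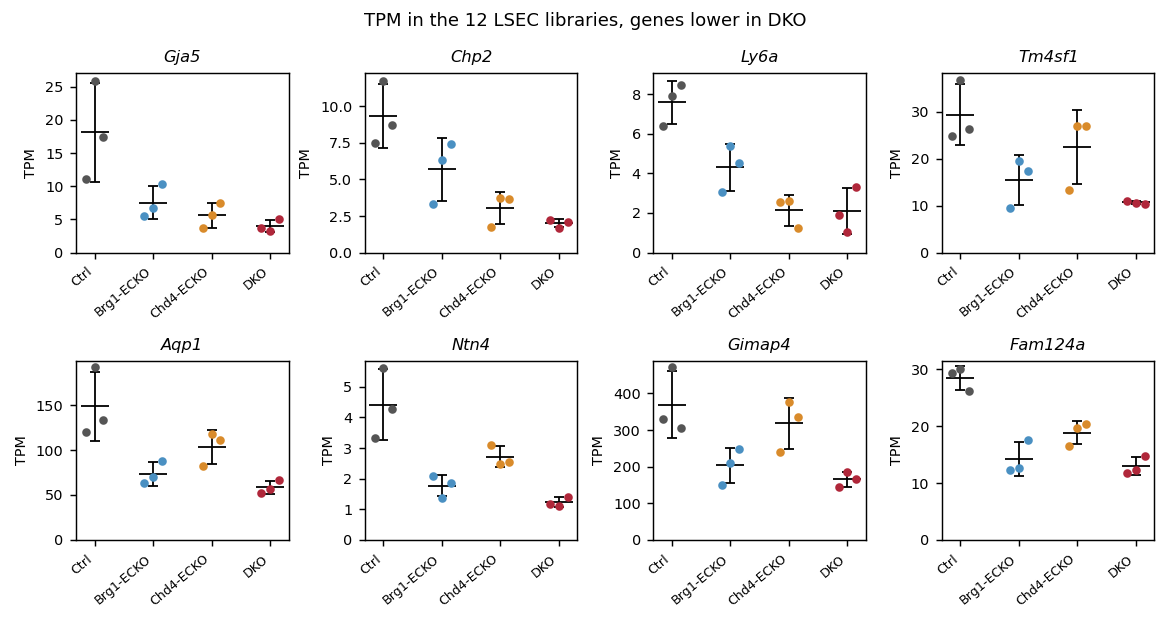
TPM (vertical) of 8 of the 10 lower DEGs in the 12 LSEC libraries by genotype, each point a library, with the mean and SD of 3 libraries. DKO libraries lie under every Ctrl library in each panel, for *Gimap4* at 143 to 185 TPM against 306 to 473 TPM.

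Arteriovenous and Notch genes moved both ways, with 1 DEG in each direction among 20 tested and a median of -0.08. Of all tested genes 0.491% were higher and 0.0744% lower DEGs. *Jag2*, a Notch ligand, had 2.79, 2.84 and 1.996 TPM in Ctrl and 5.84, 7.33 and 9.48 TPM in DKO (1.26, SE 0.19, adjusted p = 0.00651), and *Gja5* was the lower one. *Gja4*, connexin 37, had 18.4 to 24.99 and 11.3 to 16.8 TPM (-0.60, SE 0.20, adjusted p = 0.231), and the Notch ligand *Dll4* had 23.6 to 31.8 and 20.2 to 24.7 TPM. *Nkx2-3* (ENSMUSG00000044220), a homeobox factor of endothelium in spleen and gut, had 1.63, 3.22 and 2.82 TPM in Ctrl and 9.54, 9.96 and 15.1 TPM in DKO (1.82, SE 0.27, adjusted p = 0.00631), a call lost without DKO library 3. Among 18 tested angiocrine genes, signals from endothelium to its neighbors, 0 were DEGs, and the median was 0.33. In 5 of them (27.8%) every DKO library was above every Ctrl library, against 20.8% of all tested genes. *Vegfa* passed the adjusted p alone, as did 0.751% of tested genes in that direction. It had 60.9, 64.8 and 48.5 TPM in Ctrl and 86.5, 98.1 and 127 TPM in DKO (0.82, SE 0.17, adjusted p = 0.0402).

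The plasmin system and NFkB lists hold the genes that the study named for this liver phenotype. Plasmin is the protease that dissolves fibrin and matrix, and the receptor encoded by *Plaur* concentrates its activator at the cell surface. None of 13 plasmin system genes was a DEG, and their median of 0.08 lay under that of all genes. *Plaur* had 5.65, 7.67 and 8.08 TPM in Ctrl and 8.23, 11.5 and 9.06 TPM in DKO (0.38, SE 0.17, adjusted p = 0.382), so that the lowest DKO library stood just above the highest Ctrl library. *Plau*, the activator, had 31.2 to 35.3 and 42.1 to 49.6 TPM (0.46, SE 0.20, adjusted p = 0.369), *Plat* 45.8 to 65.7 and 50.3 to 61.7 TPM, and *Plg*, the plasminogen gene of hepatocytes, 57.5 to 109.7 and 94.3 to 152 TPM. Of 23 tested NFkB response and adhesion genes *Ccl2*, a chemokine for monocytes, was the 1 DEG, and the median was 0.19. Of all tested genes 0.491% were higher DEGs. In 9 of the 23 (39.1%) every DKO library was above every Ctrl library, against 20.8% of all tested genes. In 1 (4.35%) every DKO library was below, against 2.29%. *Ccl2* had 2.82, 1.61 and 3.66 TPM in Ctrl and 9.67, 9.21 and 12.0 TPM in DKO (1.65, SE 0.29, adjusted p = 0.0144). *Ccl2* lost its call in 6 of 17 alternatives, among them without Ctrl library 1 or 2 or DKO library 3. *Icam1* had 38.9, 42.5 and 35.4 TPM in Ctrl and 35.5, 37.3 and 46.2 TPM in DKO (0.02, SE 0.13, adjusted p = 0.952). *Vcam1* (0.03, SE 0.15), *Tnf* (-0.01, SE 0.25), *Il1b* (-0.12, SE 0.30) and *Rela* (0.23, SE 0.14) had adjusted p of 0.936, 0.988, 0.872 and 0.489. *Il6*, which did not pass the filter on low values, had 0, 0.216 and 0 TPM in Ctrl and 0.607, 0.441 and 0.310 TPM in DKO. The study reported *Plaur*, *Icam1* and *Tnf* as raised in Chd4-ECKO LSECs. For these genes every DKO library was below every Chd4-ECKO library. DKO differed from Chd4-ECKO by -0.54, -0.45 and -0.54 in that order (SE 0.17, 0.13 and 0.25), with limma adjusted p of 0.415, 0.401 and 0.484. *Vcam1* went the other way (0.33, SE 0.15, adjusted p = 0.483), and for *Il1b* the groups overlapped.

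Lists of the cell cycle and of chromatin held few DEGs. *Cdkn1a*, the p21 inhibitor of cyclin-dependent kinases, had 5.72, 4.67 and 5.42 TPM in Ctrl and 10.3, 11.3 and 13.4 TPM in DKO (1.01, SE 0.20, adjusted p = 0.0299), the 1 DEG among 18 tested inhibitor and p53 target genes (median 0.28), and it lost its call in 9 of 17 alternatives, among them each without 1 Ctrl library. Cell cycle genes gave 0 DEGs of 25 (median 0.14), NuRD subunits 0 of 15 (median 0.11) and BAF subunits 0 of 26 (median 0.15). Basement membrane genes gave 0 of 15 (median 0.03), immediate-early genes 0 of 18 (median 0.27), mesenchymal genes 0 of 20 (median 0.09) and placental genes 0 of 4 (median 0.34). Hepatoblast genes gave 0 DEGs of 28 with a median of 0.49 and 7 higher in every DKO library, and their summed TPM was 4698 to 9620 in Ctrl and 6695 to 10940 in DKO. A share of 25% without overlap is near the 20.8% of all tested genes. The share higher in every DKO library was 38.9% for inhibitor and p53 target genes and for immediate-early genes, and 33.3% for NuRD subunits. It was 50% for placental, 23.1% for BAF, 10% for mesenchymal, 8% for cell cycle and 6.67% for basement membrane genes. Of these lists, 1 mesenchymal and 1 basement membrane gene were lower in every DKO library. *Hspa1a* and *Hspa1b*, in the immediate-early list, had 1.85 and 1.69 (limma adjusted p = 0.142 and 0.0657).

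Whether the second deletion matters was read from direct contrasts of DKO with each single mutant, in which the Ctrl libraries cancel. *Eif2s3y* was above 10 TPM in 2 of 3 Chd4-ECKO, 1 of 3 Brg1-ECKO and 1 of 3 DKO libraries. The contrast with Chd4-ECKO is therefore also unbalanced in Y-linked RNA. The fold changes against Ctrl share the Ctrl libraries and are given only side by side. Against Chd4-ECKO 5 genes (0.0372%) were DEGs, 1 of them higher in DKO, and 1397 had an unadjusted limma p under 0.05. *Nkx2-3* had 1.84, 2.64 and 2.26 TPM in Chd4-ECKO, 4.14, 7.40 and 9.54 TPM in the Brg1-ECKO libraries, and 9.54 to 15.1 TPM in DKO, and DKO exceeded Chd4-ECKO by 1.93 (SE 0.27, adjusted p = 0.0138). The 4 lower ones were at or below their Ctrl level in DKO. *Thy1*, a surface protein of neurons and T cells, had a mean of 13.0 TPM in Chd4-ECKO, 2.89 in DKO and 3.06 in Ctrl (DKO against Chd4-ECKO -1.85, SE 0.21, adjusted p = 0.00611). *Sncg*, gamma-synuclein, had means of 32.0, 11.5 and 14.1 TPM in the same order (-1.42, SE 0.17, adjusted p = 0.00824). *Prl3b1*, a placental lactogen, had means of 3.25, 0.167 and 0.242 TPM (-1.87, SE 0.24, adjusted p = 0.00981), and *Cpa1*, a pancreatic carboxypeptidase, 7.89, 1.62 and 4.10 TPM (-1.77, SE 0.24, adjusted p = 0.0138). For each of the 4 lower genes every Chd4-ECKO library was above every DKO library. The number of genes called nevertheless moved when single libraries were left out. Without Brg1-ECKO library 1 there were 3 higher and 8 lower, without DKO library 2 or 3 there were 0 higher and 2 lower, without Chd4-ECKO library 3 there were 0 higher and 4 lower, and without Chd4-ECKO library 1 or 2 the count of higher and that of lower calls were both 0.

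Of the 76 DEGs against Ctrl only *Nkx2-3* was also a DEG against Chd4-ECKO, which does not show that the others were equal. *Hbb-bh1* had 102, 789 and 328 TPM in Chd4-ECKO against 129.6 to 146 in DKO (difference -1.12, SE 0.52, adjusted p = 0.481). *Tcfl5* had 13.5, 17.8 and 10.96 TPM in Chd4-ECKO against 11.5 to 15.4 in DKO (0.00, SE 0.20, adjusted p = 0.997). *Nefh* had 13.8, 20.2 and 14.03 TPM in Chd4-ECKO, all above the 6.66 to 9.95 of DKO (-0.90, SE 0.20, adjusted p = 0.315). *Susd3* went the other way, with 0.966, 2.34 and 1.85 TPM in Chd4-ECKO libraries and 1.52, 1.64 and 1.69 TPM in those of Brg1-ECKO, all under the 3.40 to 7.40 of DKO (1.31, SE 0.25, adjusted p = 0.176 against Chd4-ECKO, and 1.33, SE 0.25, adjusted p = 0.062 against Brg1-ECKO).

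Against Brg1-ECKO 13 genes (0.0967%) were DEGs, all higher in DKO, with 4 higher without DKO library 3, 5 without DKO library 2, and 25 higher and 6 lower without Brg1-ECKO library 1. At an unadjusted limma p under 0.05 there were 820 genes in either direction, fewer than the 1397 against Chd4-ECKO. Y-linked RNA was less balanced in the contrast with Chd4-ECKO, and its part in these counts was not tested. *Hbb-bh1* had 1.84, 5.40 and 2.21 TPM in Brg1-ECKO, close to Ctrl, and DKO exceeded it by 5.15 (SE 0.52, adjusted p = 0.00053). *Tcfl5* had 1.08, 1.31 and 1.45 TPM in Brg1-ECKO (2.71, SE 0.20, adjusted p = 3.44e-05). *Nefh* had 1.45, 2.16 and 1.95 TPM (1.67, SE 0.20, adjusted p = 0.00243) and *Trap1a* 0.478, 0.337 and 0.575 TPM (2.20, SE 0.29, adjusted p = 0.00667). *Septin1*, a cytoskeletal GTPase gene of leukocytes, had a mean of 17.6 TPM in Brg1-ECKO and 32.9 in Ctrl but 52.7 in DKO and 74.8 in Chd4-ECKO (DKO against Brg1-ECKO 1.53, SE 0.13, adjusted p = 5.74e-05). *Rgs4*, a regulator of G protein signals, had 2.73, 4.77 and 5.93 TPM in the Brg1-ECKO group and 13.8, 23.8 and 27.0 TPM in DKO (2.03, SE 0.28, adjusted p = 0.00884). The 3 lower DEGs *Gja5*, *Chp2* and *Ly6a* had adjusted p of 0.685, 0.214 and 0.498 in this contrast.

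The non-EC fractions gave a comparison with libraries of their own. There 82 genes (0.595%) passed the adjusted p between DKO and Ctrl and 17 (0.123%) were DEGs, 15 of them higher. *Tcfl5* had a mean of 0.546 TPM in non-EC Ctrl and 5.29 in non-EC DKO (log2 fold change 2.02, adjusted p = 0.00033), and *Trap1a* 0.317 and 3.35 TPM (1.74, adjusted p = 0.0204). *Hapln1*, a link protein of hyaluronan, had 0.428 and 8.10 TPM there. *Hbb-bh1* had 12.0, 10.5 and 3.40 TPM in non-EC Ctrl and 21.4, 30.6 and 45.2 TPM in non-EC DKO (1.88, adjusted p = 0.28). The VE-cadherin-Cre transgene is active in some blood cells, and non-EC fractions hold blood cells and residual endothelium with 3.33 to 10.9 TPM of *Cdh5*.

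A test of whether the DKO effect differs between the fractions called 8 of 13775 genes (0.0581%), 6 of them LSEC DEGs. The model takes the fractions as independent, although those of a liver may come from 1 embryo. Most calls were lost under a replicate block, which left 1 positive and 2 negative differences, and with no filter (0 and 1). The counts were 6 and 13 after quantile normalization and 7 and 3 with a pseudocount of 0.1 TPM. *Nefh* rose in LSECs by 1.75 more than in non-EC cells (SE 0.29, adjusted p = 0.0443) and *Rac2* by 1.34 more (SE 0.24, adjusted p = 0.0452). *Gja5* fell in LSECs, and its non-EC value was 0.139 TPM in Ctrl and 0.157 TPM in DKO, too low for a fall to show there (difference of effects -1.90, SE 0.35, adjusted p = 0.0452). *Ptprcap* had 43.2 to 48.2 TPM in non-EC Ctrl and 33.8 to 48.0 TPM in non-EC DKO, far above LSEC Ctrl, and its difference of effects did not pass (3.05, adjusted p = 0.0549).

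**Figure D5:**
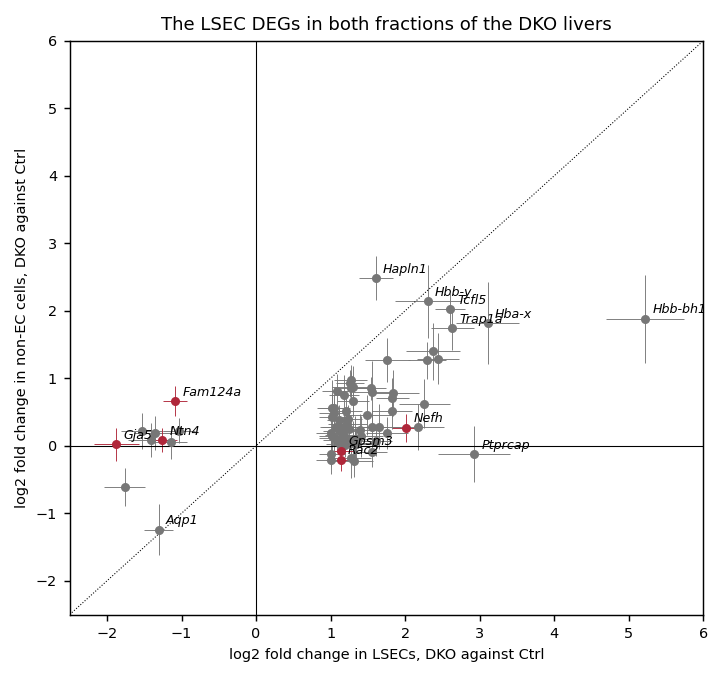
Log2 fold change of DKO against Ctrl in non-EC cells (vertical) against that in LSECs (horizontal) for the 76 LSEC DEGs, each point a gene with its SE, red where the fractions differed by test, and a dotted line for equal effects. *Tcfl5* and *Trap1a* were higher in both fractions, while *Ptprcap* was higher in LSECs by 2.93 with -0.13 in non-EC cells.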

How the data were processed

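RNA of CD146+ LSECs and of non-EC cells of E12.5 livers was sequenced after digestion with transcription inhibitors, poly-A selection and library preparation. The authors trimmed repeated guanines and aligned the reads, with CLC Genomics Workbench, against the mouse build GRCm39. Gene-level TPM were deposited, and the CLC version and annotation are not given in the sources used here. TPM sum to the same total in each library, so the depth is unknown and no counting interval can be given. The 8 group-mean columns of the authors equal the means of the replicates and were not used.

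Values were taken as log2(TPM + 1), with a filter of at least 1 TPM in at least 3 of 12 LSEC libraries. One limma 3.58.1 model (R 4.3.3) of the 12 LSEC libraries with a mean per genotype and a variance trend gave DKO against Ctrl, Chd4-ECKO and Brg1-ECKO, and a model of all 24 libraries the test between fractions. Adjusted p-values are limma's, two-sided, by the Benjamini-Hochberg method over all tested genes. An exact two-sided permutation test of 3 against 3 libraries cannot go below p = 0.1, and each of the 76 DEGs had that p. Genes named are the 16 higher and all lower DEGs of largest change, targeted and marker genes, list members that are DEGs or extremes of their list, leading DEGs of the other contrasts, and plasmin and NFkB genes that the study names. Others were named after their values were seen. The members and the 27 gene lists were chosen with earlier results of these data known, and lists are described by counts and medians without a set test. Promoter windows are the 250 bases before the canonical start in GRCm39. The model was tested on simulated data of 13444 genes with 200 changed, where it recovered 90% of changes of 1.5 and 97% of changes of 2.5 (log2), with 4 other genes called. Alternatives were another pseudocount (0.1 TPM), other filters (none, or a mean of 5 TPM), quantile normalization, TPM without mitochondrial genes, no variance trend, a replicate block, *Eif2s3y* as a covariate, only the compared groups, and each library left out. Figures were drawn with matplotlib 3.10.9 in python 3.11.15.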

Additional observations from a re-analysis of the deposited data

Results flagged for a closer look

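In 8 genes the DKO effect (DKO against Ctrl, log2) differed between LSECs and non-EC cells in a limma interaction test over 13775 genes. The difference of effects, LSEC minus non-EC, was positive in 3 of them. It was 1.75 for *Nefh* (2.02 in LSECs, 0.27 in non-EC cells), 1.34 for *Rac2* (1.13 and -0.20) and 1.21 for *Gpsm3*, a regulator of G protein signals in leukocytes (1.14 and -0.07). It was negative in the other 5. It was -1.90 for *Gja5* (-1.87 and 0.02), -1.74 for *Fam124a* (-1.09 and 0.66) and -1.35 for *Ntn4* (-1.26 and 0.09). In non-EC cells *Gja5* had means of 0.139 TPM in Ctrl and 0.157 TPM in DKO and *Ntn4* 0.606 and 0.691 TPM, levels at which log2(TPM + 1) could hardly show a fall. *Nherf2*, a scaffold of membrane transporters, had -1.39 (-0.84 and 0.55). *Ldhb*, a lactate dehydrogenase subunit, had -1.18 (-0.24 and 0.94). Adjusted p ranged from 0.0222 to 0.0452, and each group had 3 libraries. Most of these calls were lost under a replicate block, which left 1 positive and 2 negative differences, and with no filter on low values, which left 0 and 1. Quantile normalization gave 6 and 13, and a pseudocount of 0.1 TPM gave 7 and 3.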

How the results depend on the processing

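All 76 DEGs kept their direction in each alternative in which they were tested, which for a library left out follows from groups that do not overlap. The number of higher and lower DEGs against Ctrl, 66 and 10 as reported, was 43 higher with a filter at a mean of 5 TPM, 6 lower with no filter, 30 and 16 after quantile normalization, 117 higher with only the compared groups, 101 and 16 with no fold change threshold, 6 and 0 with *Eif2s3y* as a covariate, and 0 and 0 over the libraries with *Eif2s3y* above 10 TPM. That last alternative was chosen after seeing the data and leaves 1 DKO library, assumed to vary like the others. With 1 library left out the counts ranged from 19 to 106 higher and from 5 to 11 lower. Against Chd4-ECKO, 1 higher and 4 lower as reported, 0 were higher with no filter, after quantile normalization, without mitochondrial genes or with the *Eif2s3y* covariate, 2 were lower at a mean of 5 TPM, 34 were higher and 20 lower with only the compared groups, 0 and 0 over the *Eif2s3y* libraries, and 0 to 3 higher and 0 to 8 lower with 1 library left out. Against Brg1-ECKO, 13 higher and 0 lower, 8 were higher at a mean of 5 TPM and after quantile normalization, 1 was lower with a pseudocount of 0.1 TPM, 0 were higher over the *Eif2s3y* libraries, and 4 to 25 were higher and 0 to 6 lower with 1 library left out. Between the fractions, 3 positive and 5 negative differences became 7 and 3 with that pseudocount, 0 and 1 with no filter, 6 and 13 after quantile normalization, and 3 negative at a mean of 5 TPM. The cause of these shifts was not tested.

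Deviations of same-numbered Ctrl and DKO libraries correlated at -0.043, 0.189 and 0.183, and DKO library 1 correlated best with Ctrl library 2, so the numbers were not taken as pairs. A replicate block gave 81 higher and 11 lower DEGs against Ctrl, with 75 of the 76 among them, 25 higher against Brg1-ECKO, and 1 positive and 2 negative differences between the fractions.

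Some small log2 fold changes against Ctrl turned sign. After quantile normalization and without mitochondrial genes *Plat* had -0.10 and -0.053, *Icam1* -0.11 and -0.058, and *Vcam1* -0.082 and -0.046. With the *Eif2s3y* covariate *Thy1* had 0.12, *Il1b* 0.10, *Icam1* -0.04 and *Vcam1* -0.17. Over the *Eif2s3y* libraries *Il1b* had 0.59, *Icam1* -0.13 and *Vcam1* -0.25, and *Tnf* had 0.014 with a pseudocount of 0.1 TPM. With 1 library left out the values ranged from -0.10 to 0.001 for *Thy1*, -0.30 to 0.026 for *Prl3b1*, -0.10 to 0.16 for *Plat*, -0.22 to 0.22 for *Tnf*, -0.47 to 0.17 for *Il1b*, -0.092 to 0.093 for *Icam1* and -0.087 to 0.18 for *Vcam1*. Some list medians turned sign with the setting, such as those of other erythroid genes (-0.24 to 0.47), germline genes (-0.02 to 0.57) and plasmin genes (-0.10 to 0.38), while those of embryonic globin (2.83 to 3.44), pan-leukocyte (0.56 to 0.93), interferon (0.36 to 0.66) and endothelial genes (-0.30 to -0.11) did not. Depth is unknown from TPM, so genes near 1 TPM cannot be weighed by their counts.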

Other observations

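Of 36 tested hypoxia and glycolysis genes 3 were DEGs (0.491% of all tested genes were higher DEGs) and 10 passed the adjusted p (0.751% did), all higher in DKO LSECs. The list was drawn up after the values were seen, is a description only and was not run under the alternatives. All 36 had a positive log2 fold change, as did 10315 of 13444 tested genes, with a median of 0.55 beside 0.155 for all tested genes. In 28 of them every DKO library was above every Ctrl library, as in 20.8% of all tested genes. *Bnip3*, a mitophagy receptor, had 49.2, 62.7 and 63.0 TPM in Ctrl and 118, 197 and 121 TPM in DKO (1.27, limma adjusted p = 0.0141). *Egln3*, an oxygen-sensing prolyl hydroxylase, rose by 1.18 (adjusted p = 0.0114), *Slc2a3*, a glucose transporter, by 1.16 (adjusted p = 0.0338). Among the same genes' promoter windows 41.7% held ACGTG, the core of the hypoxia response element (either strand), against 20.6% of all tested genes and 13.6% of the 66 higher DEGs.

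Genes of caveolae, the membrane pits of endothelium, formed a second list drawn up after the values were seen. Its 7 members had a median of -0.20 beside 0.155 for all tested genes, and 3 were lower in every DKO library, as were 2.29% of all tested genes. *Cavin2* passed the adjusted p alone, as did 0.119% in that direction, with 393, 438 and 412 TPM in Ctrl and 180.2, 232 and 230.3 TPM in DKO (-0.96, adjusted p = 0.0382), and *Cav1* had a log2 fold change of 0.25. The summed TPM of the list was 782 to 886 in Ctrl and 517 to 621 in DKO.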
